A study of Mus musculus with 4 samples.

Results

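The p38 MAP kinase pathway was examined through 8 genes that the pathway is usually described by, chosen by name: the 4 genes of the p38 kinases (Mapk14, Mapk11, Mapk12 and Mapk13), the genes of the 2 kinases that activate them (Map2k3 and Map2k6) and the genes of 2 kinases that p38 activates in turn (Mapkapk2 and Mapkapk3). All 8 were among the 24445 genes of the expression table. The table comes from RNA sequencing of primary myoblasts, the cultured precursors of skeletal muscle fibres, of WT C57BL/6 mice (2 libraries) and of Tet2 KO mice on the same strain (2 libraries). The knockout is constitutive, by deletion of exon 3 of Tet2, so every cell type of the animal carries it, and Tet2 encodes an enzyme that oxidises 5-methylcytosine in DNA. In both groups satellite cells, the stem cells of muscle, were sorted from hindlimb as CD45-, CD11b-, CD31- and Sca1- cells positive for CD34 and for integrin alpha 7. Culture in proliferation medium on collagen for at least 3 days turned them into MyoD+ myoblasts, with no further treatment of either group. The study used male mice 8 to 10 weeks of age unless it stated otherwise, and whether the 2 libraries of a group came from separate animals is not given in the sources used here.

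p38 kinases are switched on by stress, cytokines and cell contact, when a MAP kinase kinase phosphorylates a threonine and a tyrosine in a short loop of the kinase. Active p38 phosphorylates transcription factors and further kinases, among them MK2 and MK3 (the products of Mapkapk2 and Mapkapk3), which stabilise the mRNAs of inflammatory proteins. In myoblasts p38 alpha, the product of Mapk14, is known for driving exit from the cell cycle and the muscle differentiation programme with MyoD and Mef2 factors. In leukocytes the same pathway is known for driving the production of cytokines.

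The p38 isoforms are separate genes that share the activation loop, and their sequences differ enough for reads to be told apart. The stretch of exon 7 that encodes the loop is shown for each isoform from the GENCODE vM1 annotation of mm9, 5′ to 3′ on the coding strand, with the codons of the threonine-glycine-tyrosine motif that MAP kinase kinases phosphorylate in capitals. The stretches lie at chr17:28865320-28865376 (plus strand) for Mapk14, chr15:88976272-88976328 (minus strand) for Mapk11, chr15:88965082-88965138 (minus strand) for Mapk12 and chr17:28913265-28913321 (plus strand) for Mapk13.
Mapk14: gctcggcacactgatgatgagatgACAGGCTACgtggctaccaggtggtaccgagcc
Mapk11: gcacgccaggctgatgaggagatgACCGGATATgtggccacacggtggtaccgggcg
Mapk12: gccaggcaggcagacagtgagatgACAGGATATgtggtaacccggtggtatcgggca
Mapk13: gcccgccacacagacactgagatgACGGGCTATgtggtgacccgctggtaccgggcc

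The motif is encoded by codons 180 to 182 in Mapk14, Mapk11 and Mapk13 and by codons 183 to 185 in Mapk12. Over the aligned coding sequence the isoforms were 65.2% (Mapk14 and Mapk13) to 70.8% (Mapk14 and Mapk11) identical, and Mapk12 and Mapk13 were 70.4% identical. The longest run of bases that any pair of isoform transcripts shared was 20. Map2k3 and Map2k6 were 72.3% identical with a longest shared run of 23 bases, and Mapkapk2 and Mapkapk3 were 71.0% identical with a longest shared run of 27 bases. None of the 8 transcripts had a stretch of at least 75 bases elsewhere in the genome at 95% identity or more, and their exons overlapped those of another annotated gene by 0 bases.

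Expression was given as FPKM, the fragments of a gene scaled to its transcript length and to the depth of the library, with 1 value per gene and group that the authors made from the 2 libraries of the group. The table used here holds no value per library, so no spread between the libraries of a group could be computed from the FPKM values. The authors' own comparison of the groups was not used and no test of a difference was run here, so every comparison between the groups is a description of size. A difference is given as log2((Tet2 KO FPKM + 1) / (WT FPKM + 1)), called the log2 ratio, which understates the difference of low genes. A gene was counted as higher or lower in Tet2 KO when its FPKM averaged 1 or more and this ratio reached 1.5-fold (0.58 on the log2 scale). A mean FPKM of 1 or more was reached by 11692 genes, called measured here, of which 3.72% were higher and 2.89% were lower by this rule, and their median log2 ratio was -0.0044. The spacing of the lowest values put the depth at about 49600000 fragments for Tet2 KO and 50000000 for WT. The number of fragments behind each value was estimated from that spacing and the length of 1 annotated transcript per gene. It is approximate, since the authors' program may have scaled the libraries to each other. Some members have several annotated transcripts, among them Mapk13 with 4, Mapk14 with 7 and Mapkapk3 with 10. A different length would change these numbers of fragments. The 95% intervals given for folds, exact Clopper-Pearson intervals on those numbers, cover counting error only. Differences between animals, cultures and libraries come on top of them.

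All 8 members were expressed above the minimum of 1 FPKM in both groups. Mapk13, the gene of p38 delta, and Mapkapk3, the gene of MK3, were higher in Tet2 KO by more than 1.5-fold. No member was lower by that fold. The other 6 members lay between -0.08 and 0.27. The 2 of 8 members that were higher are 25.0%, beside 3.72% of all genes. Members and fold were chosen with earlier results of these data known, so this contrast is a description and cannot serve as evidence about the pathway. The members with low values are better set beside genes of like level: of the 4803 with a mean FPKM from 1 to under 10, 6.66% were higher and 4.08% were lower. The median log2 ratio of the 8 members was 0.18, and 6 of the 8 ratios were above 0, beside 48.8% of all genes.

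Among the p38 isoforms, Mapk14 was the most abundant in both groups. Mapk14 (ENSMUSG00000053436.8, chr17:28828287-28885350, plus strand, 12 exons) encodes p38 alpha, the isoform of myoblast differentiation. It had 29.0 FPKM in Tet2 KO against 26.3 FPKM in WT, a log2 ratio of 0.14. The fold was 1.10 with a counting interval from 1.06 to 1.15, on about 5096 and 4660 fragments. This interval leaves out 1, but it holds no error between libraries, and the ratio ranked 2122 from the top among the 11692 genes.

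Mapk13 (ENSMUSG00000004864.6, chr17:28906262-28915649, plus strand, 12 exons) encodes p38 delta. It had 13.6 FPKM in Tet2 KO against 5.38 FPKM in WT. The log2 ratio was 1.20, at rank 172 from the top among the 11692 genes, and the fold without the added 1 FPKM was 2.53. On about 940 and 374 fragments the counting interval of that fold ran from 2.25 to 2.86. Mapk13 thus had the largest difference of the 8 members, both as a log2 ratio and in FPKM, where it was 8.23. The study had an RT-qPCR assay for Mapk13, and its text does not state why this gene was chosen. The direction here is read from the study's own libraries and is not independent evidence.

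The study's RT-qPCR assay for Mapk13 read bases 397 to 596 of the 1392 bases of the transcript. Its primers are shown 5′ to 3′ because they mark the stretch of Mapk13 that the assay reads.
Forward: gagcttccatgatttctacctg
Reverse: tcagctcacagtcttcattcac

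The forward primer spans the junction of exons 3 and 4, at chr17:28908147-28908161 and chr17:28912199-28912205, and the reverse primer lies in exon 6, at chr17:28913104-28913125. Both lie in coding sequence, their product of 200 bases ends upstream of the activation loop, and neither has an exact match in the transcripts of the other 7 members.

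Mapk11 and Mapk12 are the genes of p38 beta and p38 gamma. Mapk11 (ENSMUSG00000053137.5, chr15:88972914-88980036, minus strand, 12 exons) had 7.19 FPKM in Tet2 KO against 6.03 FPKM in WT. Its log2 ratio was 0.22, and the fold of 1.19 had a counting interval from 1.08 to 1.32. Mapk12 (ENSMUSG00000022610.9, chr15:88961014-88971133, minus strand, 12 exons) encodes the isoform that is known to be abundant in skeletal muscle. In these cells it was the lowest isoform, with 2.81 FPKM in Tet2 KO against 2.16 FPKM in WT. Its log2 ratio was 0.27, and the fold of 1.30 had a counting interval from 1.08 to 1.57 on about 264 and 204 fragments. Neither gene reached the 1.5-fold.

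The genes of the kinases above p38 differed by less than 1.5-fold. Map2k3 (ENSMUSG00000018932.3, chr11:60745559-60766305, plus strand, 12 exons), the gene of MKK3, had 53.0 FPKM in Tet2 KO against 48.5 FPKM in WT. The log2 ratio was 0.12, and the fold of 1.09 had a counting interval from 1.05 to 1.13. Map2k6 (ENSMUSG00000020623.5, chr11:110260436-110374951, plus strand, 12 exons), the gene of MKK6, was the lowest of the 8 members in both groups. It had 1.39 FPKM in Tet2 KO against 1.52 FPKM in WT, a log2 ratio of -0.08. On about 142 and 157 fragments the interval of its fold ran from 0.722 to 1.15, so a difference was not detectable even against counting error alone. Map2k3 made up 97.4% of the FPKM of the pair in Tet2 KO and 97.0% in WT.

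Below p38, the kinases MK2 and MK3 differed from each other. Mapkapk2 (ENSMUSG00000016528.3, chr1:132950278-132994420, minus strand, 10 exons) encodes MK2, which phosphorylates the heat shock protein Hsp27 and proteins that bind AU-rich mRNAs. It had 52.3 FPKM in Tet2 KO against 54.8 FPKM in WT, with a log2 ratio of -0.07. The fold of 0.953 had a counting interval from 0.922 to 0.986. Mapkapk2 was the most abundant member in WT, while Map2k3 was the most abundant in Tet2 KO; these orders rest on differences of a few FPKM and have no replicate check.

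Mapkapk3 (ENSMUSG00000032577.9, chr9:107157258-107192208, minus strand, 11 exons) encodes MK3, a close relative of MK2 with overlapping substrates. It had 6.56 FPKM in Tet2 KO against 2.98 FPKM in WT. The log2 ratio was 0.92, at rank 273 of the 11692 genes, and the fold without the added 1 FPKM was 2.20. Its counting interval ran from 1.96 to 2.47 on about 916 and 420 fragments. Mapkapk3 was thus higher in Tet2 KO by a fold like that of Mapk13, from a lower level.

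**Figure D1:**
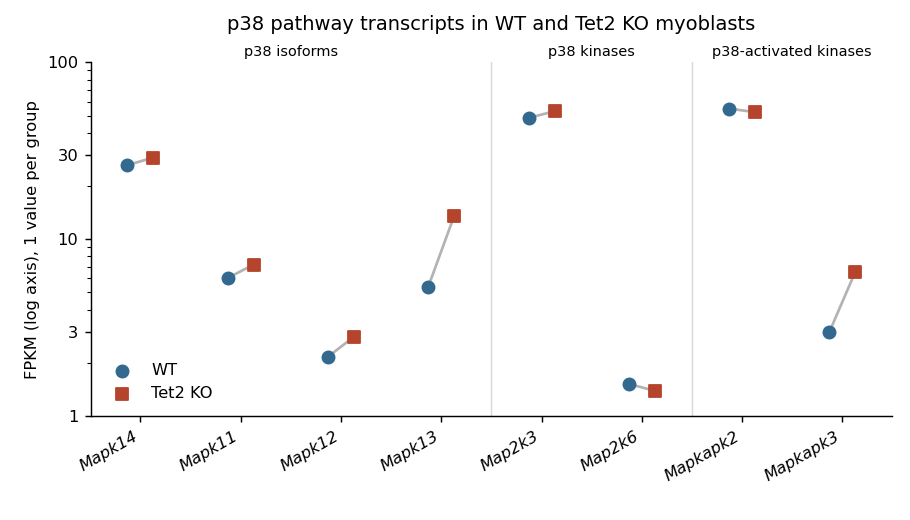
FPKM (log axis) of the 8 members, grouped by role, with WT as circles and Tet2 KO as squares; each point is the 1 value of a group and carries no error bar. Mapk13, from 5.38 to 13.6 FPKM, and Mapkapk3, from 2.98 to 6.56 FPKM, have the steepest connecting lines, while the lines of the other 6 members are nearly level.

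**Figure D2:**
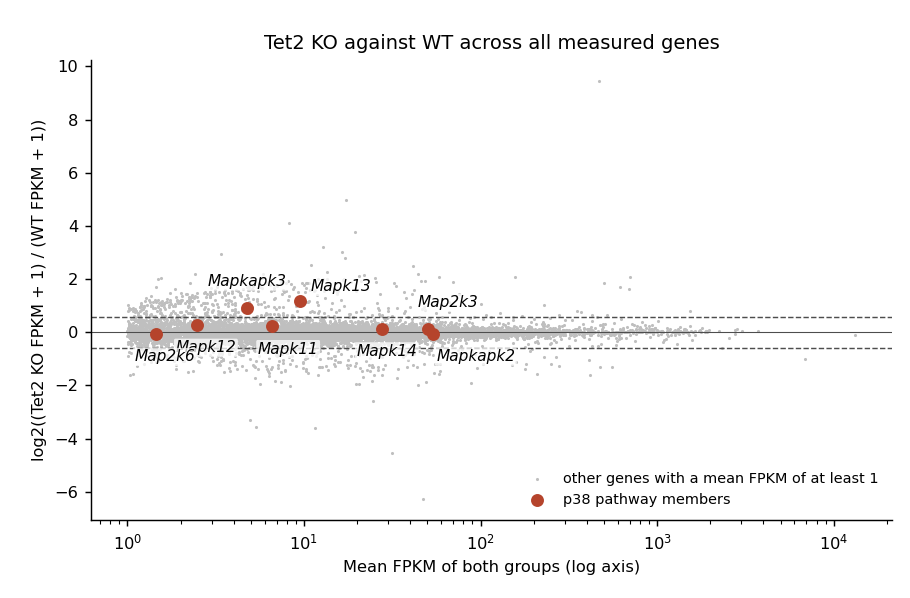
Mean FPKM of both groups (x, log axis) against the log2 ratio of Tet2 KO over WT (y) for all 11692 measured genes, in grey, and the 8 members in red; dashed lines mark 1.5-fold. Mapk13 and Mapkapk3 lie above the upper line, and the other 6 members lie inside the band where most genes are.

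FPKM is scaled by transcript length, so the levels of the members can be set beside each other within a group. In WT their order from the highest was Mapkapk2, Map2k3, Mapk14, Mapk11, Mapk13, Mapkapk3, Mapk12 and Map2k6. The order in Tet2 KO had Map2k3 above Mapkapk2 and Mapk13 above Mapk11, with the other members in the same places. The first exchange is one of a few FPKM. In the second, the FPKM of Mapk13 was 0.892 times that of Mapk11 in WT and 1.89 times in Tet2 KO.

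The make-up of the p38 transcripts differed between the groups through Mapk13. The summed FPKM of the 4 isoforms was 52.6 in Tet2 KO and 39.8 in WT, and Mapk13 accounted for 64.7% of the difference of 12.7 FPKM. Mapk14 accounted for 21.1%, Mapk11 for 9.12% and Mapk12 for 5.11%. Mapk13 was 13.5% of the sum in WT and 25.9% in Tet2 KO. The share of Mapk14 was 65.9% in WT and 55.1% in Tet2 KO, although its own FPKM was no lower in Tet2 KO, since a share depends on the other members of the sum. Mapk14 was 4.88 times Mapk13 in WT and 2.13 times in Tet2 KO. The shares of Mapk11 were 15.1% and 13.7%, and those of Mapk12 5.43% and 5.35%. In the same way Mapkapk3 was 5.16% of the summed FPKM of Mapkapk2 and Mapkapk3 in WT and 11.1% in Tet2 KO. That sum itself was 57.8 FPKM in WT and 58.8 FPKM in Tet2 KO, so most transcripts of the pair came from Mapkapk2 in both groups.

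**Figure D3:**
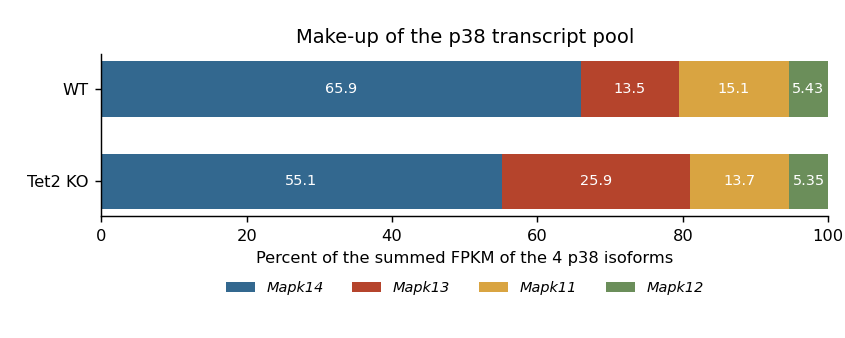
Share of each p38 isoform in the summed FPKM of the 4 isoforms (x, percent), 1 bar per group. The segment of Mapk13 is 13.5% in WT and 25.9% in Tet2 KO, and Mapk14 is the largest segment in both bars.

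The members lie at 6 places in the genome, and 4 of them lie in pairs of neighbours. Mapk12 and Mapk11 lie 1780 bases apart on the minus strand of chromosome 15, and Mapk14 and Mapk13 lie 20911 bases apart on the plus strand of chromosome 17. The neighbours in the first pair had like log2 ratios, 0.27 and 0.22. Those in the second pair did not, with 0.14 for Mapk14 and 1.20 for Mapk13. The genes around the members were described in the same way. Within 100 kb of a member lay 31 genes that are not members, of which 19 were measured. Of these 0 were higher and 0 were lower by 1.5-fold, beside 3.72% and 2.89% of all genes, shares that 0 of 19 is near. Most of them lie beside members that were not higher. Mapk13 had 2 measured neighbours (Mapk14 and Brpf3) and Mapkapk3 had 1 (Hemk1), so the count says little about those members. Their log2 ratios ran from -0.40 (Hemk1) to 0.46 (Rassf5) with a median of 0.01. Rassf5 had 1.58 FPKM in Tet2 KO against 0.878 FPKM in WT and reached the minimum mean through Tet2 KO alone. At such low values the added 1 FPKM understates the difference, so the count of 0 higher depends on it.

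On the far side of Mapk13 the nearest expressed gene, Brpf3, had 3.56 FPKM in Tet2 KO against 2.74 FPKM in WT, a log2 ratio of 0.29. Beyond Mapk14, Srpk1 had 62.9 and 62.8 FPKM and a log2 ratio of 0.00. The measured gene nearest to Mapkapk3 was Hemk1, with 3.45 FPKM in Tet2 KO against 4.88 FPKM in WT. Thus both genes next to the members that were higher had ratios smaller than 1.5-fold, and that of Hemk1 had the opposite sign. The nearest expressed genes of the other members were Hdac10 beside Mapk12 (-0.06), Plxnb2 beside Mapk11 (0.11), Map2k3os (0.06) and Kcnj12 (-0.39) beside Map2k3, Abca5 beside Map2k6 (0.18) and Dyrk3 beside Mapkapk2 (0.09), each with its log2 ratio.

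**Figure D4:**
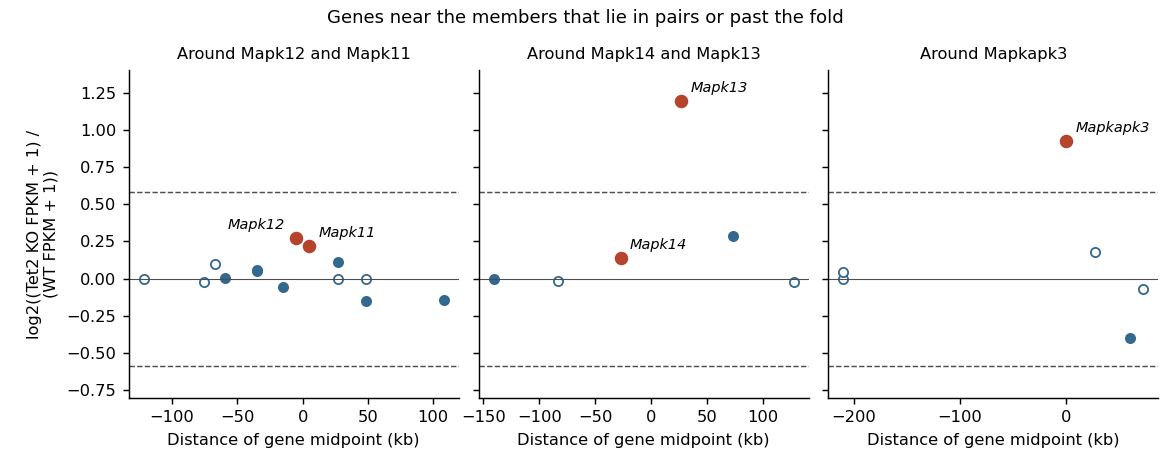
Log2 ratio of Tet2 KO over WT (y) against the distance of a gene's midpoint from the centre of the member or pair, in kb (x), for genes within 100 kb of Mapk12 and Mapk11, of Mapk14 and Mapk13, and of Mapkapk3. Members are red, other measured genes are filled blue and genes under 1 FPKM on average are open; dashed lines mark 1.5-fold, which Mapk13 and Mapkapk3 alone pass in these 3 panels.

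The study examined DNA methylation and the binding of MyoD at E-boxes (CANNTG, the sequence that MyoD and related factors recognise). No methylation or binding data were analysed here, and the promoters of Mapk13 and Mapkapk3 are shown only to describe the sequence before the start sites of the members that were higher. Each is the 250 bases before the start site in RefSeq (GRCm38.p6), matched without a difference to mm9 at chr17:28906012-28906261 (Mapk13, plus strand) and chr9:107192209-107192458 (Mapkapk3, minus strand), 5′ to 3′ on the strand of the gene, with E-boxes in capitals. CANNTG reads as CANNTG on both strands.
Mapk13: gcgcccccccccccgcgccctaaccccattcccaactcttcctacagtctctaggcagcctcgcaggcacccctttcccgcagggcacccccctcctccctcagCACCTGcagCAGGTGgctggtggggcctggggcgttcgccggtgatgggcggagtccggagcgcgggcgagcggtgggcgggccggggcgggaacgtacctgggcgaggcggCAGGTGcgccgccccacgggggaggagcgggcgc
Mapkapk3: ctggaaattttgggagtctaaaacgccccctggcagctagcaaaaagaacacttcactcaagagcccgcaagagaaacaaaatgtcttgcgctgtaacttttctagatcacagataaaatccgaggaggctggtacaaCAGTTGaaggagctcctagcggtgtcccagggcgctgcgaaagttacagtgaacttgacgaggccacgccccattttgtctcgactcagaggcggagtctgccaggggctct

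The Mapk13 promoter held 3 E-boxes and 25 CpGs, and 76.0% of its bases were G or C. Of 32851 mouse promoters of the same length 12.2% held at least 3 E-boxes and 10.7% held at least 25 CpGs. The Mapkapk3 promoter held 1 E-box and 11 CpGs, and of all promoters 66.2% held at least 1 E-box and 35.6% at least 11 CpGs. Among the members whose ratio was under 1.5-fold, the promoter at the first start site held 0 E-boxes for Mapk11, Map2k3, Map2k6 and Mapkapk2, 1 for Mapk14 and 2 for Mapk12. Some members have further start sites, and the promoter at each of these held 1 E-box. Their CpGs numbered 6 for Mapkapk3, 14 for Mapk14, and 5 and 4 for Map2k6. Mapk14, with 30 CpGs at its first start site, had more than Mapk13 and a log2 ratio of 0.14. A match of 6 letters is a description of the sequence and says nothing of binding or methylation in these cells.

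The other genes of the pathway were counted by lists written from general knowledge of p38 signalling, with earlier results of these data known. Of 25 upstream kinases and adaptors, the proteins that carry stress and cytokine signals to MKK3 and MKK6, 24 were measured, 0 were higher and 1 was lower, beside 2.89% of all genes lower, a share that 1 of 24 is near. The 1 was Gadd45a, an activator of the MAP kinase kinase kinase Map3k4, with 36.5 FPKM in Tet2 KO against 65.8 FPKM in WT (log2 ratio -0.83). The highest was Map3k1 at 0.29, and the list median was 0.01. Among 13 scaffolds and promyogenic inputs, which link cell contact and cadherins to p38 in myoblasts, 12 were measured. Of these 0 were higher or lower, beside 3.72% and 2.89% of all genes, shares that 0 of 12 is near. They ran from -0.21 for Cdh15, the gene of M-cadherin, to 0.12 for Carm1, with a median of -0.09. No other measured gene of these lists reached 1.5-fold on this scale.

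Phosphatases that switch MAP kinases off were 16 genes, of which 13 were measured, 2 were higher and 0 were lower, beside 3.72% and 2.89% of all genes. Ptpn7, a tyrosine phosphatase of blood cells that binds p38 and ERK, had 2.73 FPKM in Tet2 KO against 0.786 FPKM in WT (log2 ratio 1.06). Below 1 FPKM in WT, it reached the minimum mean through its Tet2 KO value alone, so its place in the count was favoured by the filter. Dusp2, an immediate early phosphatase of activated leukocytes, had 20.4 and 11.1 FPKM (0.83). The lowest was Dusp1, the gene of the phosphatase MKP-1, at -0.45, with 7.08 FPKM in Tet2 KO against 10.1 FPKM in WT. The list median was 0.11.

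Other kinases activated by p38 were 5 genes (Mapkapk5, Rps6ka4, Rps6ka5, Mknk1 and Mknk2). Of these 0 were higher or lower, beside 3.72% and 2.89% of all genes, shares that 0 of 5 is near. Their ratios ran from -0.21 for Mknk2 to 0.20 for Rps6ka4, with a median of -0.04. None of them reached the fold of Mapkapk3, which belongs to the same layer. Of 25 substrates of p38 and MK2, all measured, 0 were higher and 1 was lower, a share near the 2.89% of all genes that were lower. It was Mef2c, a muscle transcription factor that p38 phosphorylates, with 11.1 FPKM in Tet2 KO against 27.8 FPKM in WT (log2 ratio -1.26). The highest was Ezh2, the gene of a histone methyltransferase, at 0.27, and the list median was 0.01.

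Inflammatory transcripts whose mRNAs p38 and MK2 are known to regulate differed most among the pathway lists. Of 15 genes 9 were measured, of which 7 were higher and 0 were lower, beside 3.72% higher and 2.89% lower among all genes. Ptgs2, the gene of the prostaglandin enzyme COX-2, had 55.1 FPKM in Tet2 KO against 18.7 FPKM in WT (log2 ratio 1.51). Lif, a cytokine, had 9.93 and 3.55 FPKM (1.27). Cxcl1, a neutrophil chemokine, had 90.8 and 41.1 FPKM (1.12). The lowest was Il1b at -0.31, with 2.08 FPKM in Tet2 KO against 2.81 FPKM in WT. The median was 0.95, beside -0.0044 for all genes. Tnf, 1 of the 7, had 2.29 and 0.699 FPKM and reached the minimum mean through Tet2 KO alone, so the filter favoured its call, and 6 were higher under a minimum mean of 5 FPKM. Transcript levels do not measure the activity of p38.

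The ERK and JNK pathways and the atypical MAP kinases are the nearest relatives of the p38 pathway. All 13 genes of the ERK pathway were measured and 0 were higher or lower, beside 3.72% and 2.89% of all genes. Their ratios ran from -0.33 for Rps6ka2 to 0.29 for Rps6ka1, with a median of -0.00023. Of 5 genes of the JNK pathway 4 were measured and 0 were higher or lower, from -0.09 for Mapk8 to 0.05 for Map2k7 and with a median of -0.0024. The sign of both medians turned under other scalings. Of 4 atypical MAP kinases 2 were measured, Nlk at -0.20 and Mapk6 at 0.10, and 0 were higher or lower. In lists as short as these 3, a count of 0 is near the shares of all genes and sets the lists apart from nothing. The difference between these lists and the 8 members was not tested.

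**Figure D5:**
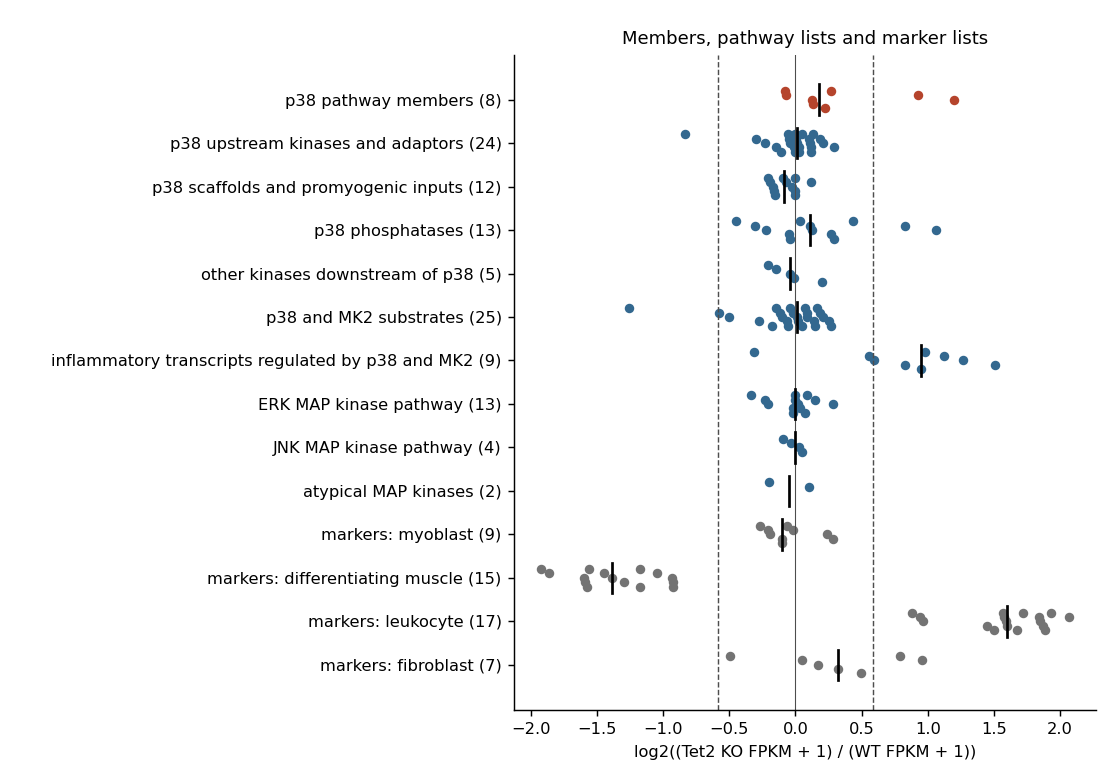
Log2 ratio of Tet2 KO over WT (x) of each measured gene (points), with the number measured in parentheses. Drawn are the members, the lists of the pathway and the myoblast, differentiating muscle, leukocyte and fibroblast marker lists. The lymphocyte and endothelial lists are not drawn. Black bars are list medians and dashed lines mark 1.5-fold. The ERK and JNK genes lie within the dashed lines, as 6 of the 8 members do, and the leukocyte and differentiating muscle markers lie wholly outside them, on opposite sides.

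Markers of leukocytes and of differentiating muscle differed between the groups by more than 1.5-fold, as Mapk13 and Mapkapk3 did. All 17 leukocyte markers were higher in Tet2 KO, with log2 ratios from 0.88 (Cd14) to 2.07 (Lyz2), a median of 1.60 and a summed level of 2231 FPKM against 628 FPKM. Ptprc, which encodes the CD45 used to sort leukocytes out, had 5.67 FPKM in Tet2 KO against 1.36 FPKM in WT, so defining leukocyte markers were present in both groups. The genes of the other markers sorted out before culture were also read in both groups. In Tet2 KO and WT, Itgam (CD11b) had 10.1 and 2.09 FPKM, Pecam1 (CD31) 1.48 and 1.63 FPKM and Ly6a (Sca1) 288 and 278 FPKM. Of the 17 leukocyte markers, Adgre1 reached the minimum mean through Tet2 KO alone, with 3.67 and 0.712 FPKM. Mapk13, Mapkapk3, Ptpn7, Dusp2 and 7 of the 9 measured inflammatory transcripts were higher in the same group as these markers. The part of leukocyte RNA in their values was not tested. In bulk samples, more cells of a type and more RNA per cell cannot be told apart.

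All 15 markers of differentiating muscle were lower in Tet2 KO, from -1.92 (Tnnc2, with 36.1 FPKM against 140 FPKM) to -0.93, with a median of -1.38. Their summed level was 1273 FPKM in Tet2 KO against 3276 FPKM in WT, and Mef2c was lower in the same group. The 9 myoblast markers, 2 of which are also in the lists of substrates and inputs, had 0 higher and 0 lower. That is near the 3.72% and 2.89% of all genes. Their median was -0.10 and their summed levels were 1613 and 1699 FPKM. Myod1 had 313 FPKM in Tet2 KO against 336 FPKM in WT, so the label of myoblasts was met in both groups. The ratios of Mapk14 (0.14), Map2k3 (0.12) and Mapkapk2 (-0.07), the abundant members, lay within 1.5-fold. So did those of Mapk11 (0.22), Mapk12 (0.27) and Map2k6 (-0.08), which were lower in level. The part of differentiation in the members' values was not tested either.

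Markers of lymphocytes and endothelium were low, and most measured fibroblast markers had ratios above 0. None of the 9 lymphocyte markers reached a mean of 1 FPKM, with 1.09 FPKM for Lck in Tet2 KO as the highest value, and 2 were listed at 0 in each group. Of 6 endothelial markers 1 was measured, Pecam1, with 1.48 and 1.63 FPKM. Of 9 fibroblast markers 7 were measured. Of these 2 were higher, Dcn (0.95) and Col1a2 (0.79), and 0 were lower, beside 3.72% and 2.89% of all genes. Ratios above 0 numbered 6 of the 7, beside 48.8% of all genes, with Postn the lowest at -0.50 and a median of 0.32. Summed levels were 493 and 454 FPKM. Most of these sums came from Ly6a (288 and 278 FPKM) and Col3a1 (171 and 152 FPKM), so they say little of the other fibroblast markers. Tet2 itself had 5.79 FPKM in Tet2 KO against 6.64 FPKM in WT (log2 ratio -0.17). Since this value is summed over the whole gene and not read at the deleted exon 3, it is no check of the labels.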

How the data were processed

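Per the study's methods and the submitters' processing notes, the authors trimmed and filtered read pairs from unstranded TruSeq libraries, aligned them to mm9 with TopHat2 2.0.13 and ran Cuffdiff 2.2.1. The deposited table holds 1 FPKM value per gene and group, and the gene annotation and the way the 2 libraries of a group were combined are not given in the sources used here. It also holds the authors' own comparison (fold changes, statistics, p-values and calls), which was not used. The 8 members were matched by symbol. The members, the gene lists, the rules and the alternatives were chosen with earlier results of these data known. All members were named, and from each list the highest and lowest measured genes and up to 3 past 1.5-fold in each direction were named. The nearest measured neighbours and Tet2 were also named. A few genes outside this rule (Ptprc, Itgam, Adgre1, Ly6a, Col3a1, Myod1, Tnf, the neighbour extremes) were chosen after their values were seen.

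Log2 ratios used a pseudocount of 1 FPKM and a mean FPKM of at least 1. Fragments per gene were estimated with the length of 1 transcript per member, that with the longest coding sequence. The spacing came from low FPKM values (1173 values in Tet2 KO and 1408 in WT). About 78.0% of the lowest of these lay within 0.2 fragments of a whole number, against 40% if spread evenly. The estimated fragments, and the counting intervals made from them, are therefore approximate, and no p-value was taken from them. Sequence identity, exon structure and E-boxes came from GENCODE vM1 and RefSeq, and copies were searched with BLAST 2.17.0. Computations used Biopython 1.88, matplotlib 3.10.9, scipy 1.17.1, pandas 2.3.3 and numpy 2.4.6 under Python 3.11.15. The rules were run on simulated data with large planted changes and little noise, which is a check of the code and not of the differences reported here.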

Additional observations from a re-analysis of the deposited data

How the results depend on the processing

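No paired analysis was possible because the table holds 1 pooled value per group; for the same reason no library could be left out in turn. No ratio of a member changed its sign. The medians of the ERK and JNK lists, which are close to 0, turned to 0.0030 and 0.00068 under TPM and to 0.0041 and 0.0019 under centring, that of ERK to 0.0087 under a minimum of 5 FPKM and that of JNK to 0.014 without a filter. The count of 2 members higher became 1, Mapk13, under a minimum mean of 5 FPKM, at which Mapkapk3 was not measured, and 1 at a 2-fold threshold, where Mapkapk3 at 0.92 lay just under it. Phosphatases higher became 1 under each of these, inflammatory transcripts higher became 3 at 2-fold, and upstream genes lower became 2 without a pseudocount and 0 at 2-fold. With Mapk14 left out of the isoform sum, the shares in Tet2 KO were 57.6% for Mapk13, 30.5% for Mapk11 and 11.9% for Mapk12, and in WT 39.6%, 44.4% and 15.9%. The shares of all genes higher and lower were 2.20% and 1.46% without a filter and 2.08% and 1.21% at 2-fold, and the share higher was 2.05% under the minimum of 5 FPKM. The remaining counts and shares that were rerun stayed within 1.5 times, and the remaining ratios and medians on the same side of 1.5-fold. Counts of neighbours and of cell type markers were not rerun under these settings. The median of the members ran from 0.14 to 0.22 when any 1 was left out. Rescaling to TPM and centring on the median changed no count of members. Depth limits Map2k6 and Mapk12 most, and the spread between libraries, which these values do not hold, limits every difference.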
